A study of Homo sapiens with 75 samples.

Results

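The 43 collagen genes described here were all genes whose array symbol was COL, a number, A and a number, out of 19775 genes with a probe set of a single symbol. They were covered by 112 probe sets, and 35 of the genes had more than 1, so each gene was represented by its brightest probe set on average over the 75 arrays. By structure they comprised 11 fibrillar chains, 10 fibril-associated (FACIT) chains, 6 basement membrane network chains, 5 beaded filament chains, 3 short chains, 3 transmembrane chains, 2 multiplexins, the anchoring fibril chain COL7A1 and 2 others. Messenger RNA was measured on 75 single-sample oligonucleotide arrays, 15 for each of 5 human cell lines named as labelled: G361 (melanoma), HepG2 (hepatoma), TK6 (lymphoblastoid B cells), U2OS (osteosarcoma) and BJ (fibroblasts of the skin). A line had 5 groups of 3 arrays: cells given mock irradiation (untreated) and taken at 0 h, 3 h or 6 h, and cells given 5 Gy of ionising radiation and taken at 3 h or 6 h. All lines were grown in the same medium with fetal calf serum. The labels do not say whether the 3 arrays of a group came from separate cultures, and the tests thus rest on a spread between arrays that may be technical.

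Collagens are triple helices of alpha chains, each chain the product of its own gene, and many types need chains of different genes in a fixed ratio. Fibrillar collagens (I, II, III, V, XI) give connective tissue its tensile strength, collagen IV forms the meshwork of basement membranes, and collagen VI forms beaded microfilaments around cells. Fibroblasts and osteoblasts are the classic makers of collagen I, whose usual molecule joins COL1A1 chains with a COL1A2 chain.

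Values are log2 intensities after RMA, a background correction, normalization and summary of probes. A level could be compared between lines for a probe set, not between probe sets. In such a comparison the line and a culture or hybridisation batch cannot be told apart. A level limit was set in each line at the 40th percentile of all probe sets, 3.47 to 3.51 log2 at 0 h. It is not a test of presence, since a probe set with a high background passes it. The marker genes of melanocytes (8 of 8 highest in G361), B cells (9 of 10 highest in TK6) and fibroblasts (10 of 10 highest in BJ) matched those labels. As a list, hepatocyte markers were not raised on the arrays labelled HepG2. The mean of the list was 3.67 to 3.86 log2 over the 15 arrays, against 3.33 to 4.46 log2 in the other lines. The albumin gene ALB lay at 2.91 ± 0.14 log2 (SD, n = 3). Only 1 of 10 was highest there: AFP, named after its values were seen, at 5.70 ± 0.46 log2. AFP was near that level in U2OS (5.64 ± 0.25) and at 3.52 to 3.54 log2 in G361, TK6 and BJ. The hepatocyte list was highest in U2OS for 5 of its 10 genes, named here after their values were seen. SERPINA1 was at 8.64 log2 there, against 3.00 to 3.72 in the other lines. The rest were close to the next line: APOA1 (4.33 against 4.23), TF (4.53 against 4.48), AHSG (3.44 against 3.39) and FGB (3.10 against 2.91). AHSG and FGB lay under the level limit in U2OS. Of 6 osteoblast markers, the cell type nearest to an osteosarcoma, 1 was highest in U2OS and 3 on the arrays labelled HepG2. The latter, named after their values were seen, were RUNX2 at 9.12 log2, IBSP at 4.46 ± 0.53 and SP7 at 3.23. RUNX2 was also at 8.16 in U2OS and 7.76 in BJ, IBSP was at 4.07 to 4.20 elsewhere, and SP7 lay under the level limit. Arrays labelled HepG2 are therefore named by that label only, and the osteoblast markers did not set U2OS apart. A score of 6 damage-responsive p53 target genes lay 0.94 to 2.45 log2 above the 0 h mean on every irradiated array of TK6, U2OS and BJ, with untreated arrays at -0.52 to 0.32. In G361 and in the arrays labelled HepG2 the score did not follow the irradiation labels: untreated 6 h arrays labelled HepG2 lay at 1.36 to 1.47 and irradiated 3 h arrays at -0.03 to 0.14, and G361 untreated arrays reached 1.43. Irradiation results of these 2 lines are given as labelled and cannot be read as a response to radiation.

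At 0 h, 30 collagen genes lay above the level limit in BJ, 28 in U2OS, 27 in the arrays labelled HepG2, 24 in G361 and 22 in TK6. These were 51.2% to 69.8% of the 43, where 71.4% to 73.9% of all genes lay above it. Of the 43, 18 were above it in all 5 lines and 11 in none. On their chosen probe sets the latter were COL2A1, COL4A3, COL4A4, COL4A6, COL6A5, COL6A6, COL14A1, COL21A1, COL24A1, COL25A1 and COL28A1. A moderated F test in limma over the 5 lines, adjusted by Benjamini-Hochberg, called 26 of the 32 collagen genes tested, against 77.3% of all genes tested. A gene had to pass the limit in at least 1 line to be tested, which favours genes that differ. With no level filter 26 of 43 collagen genes were called, against 65% of all genes. The 6 tested and not called were COL9A1, COL11A2, COL19A1, COL20A1, COL23A1 and COL26A1. By the pairwise tests BJ was the highest line, above each of the other 4, for 19 collagen genes. G361 was so for COL9A3, the arrays labelled HepG2 for COL13A1, TK6 for COL5A3 and U2OS for COL22A1. The share of all genes so called is not given here. By the mean alone, with no test, BJ was highest for 26 of the 43 (60.5%), against 18.6% of all genes.

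**Figure D1:**
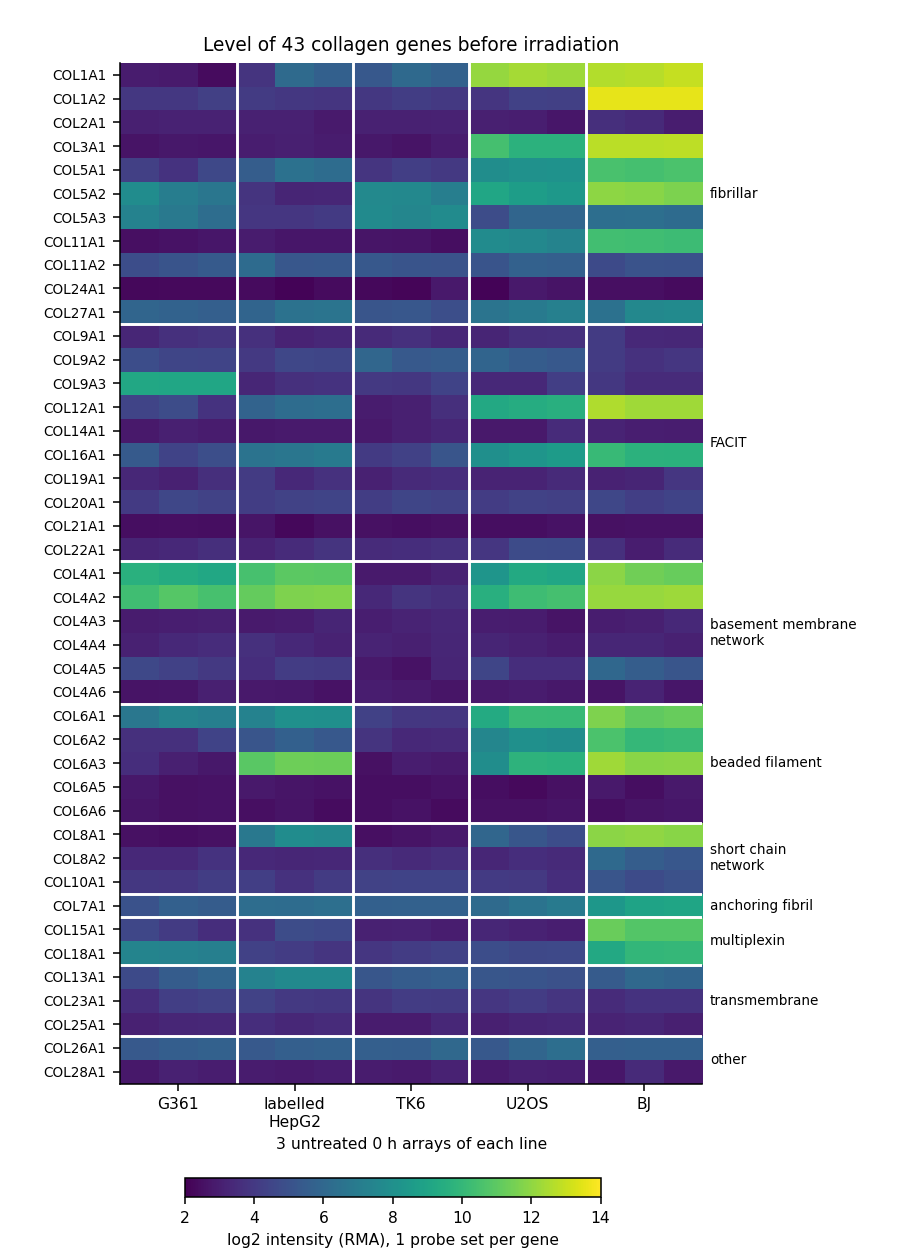
Log2 intensity of the 43 collagen genes (rows, grouped by structural class) on the 15 untreated 0 h arrays (columns, 3 per line), 1 probe set per gene. COL1A2 is bright in BJ only, COL1A1 in U2OS and BJ, COL4A1 and COL4A2 in every line except TK6, and COL9A3 in G361 only; colours cannot be compared between rows as amounts.

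The collagen I chains parted in U2OS. COL1A1 was at 12.09, 12.36 and 12.26 log2 on the U2OS arrays and at 12.62, 12.71 and 12.95 in BJ. The U2OS and BJ means differed by 0.52 log2 (SE 0.35), which was not called (limma, adjusted p = 0.235). COL1A2, the partner chain, was at 3.87, 4.32 and 4.25 log2 in U2OS and at 13.57, 13.55 and 13.57 in BJ. The measured BJ mean was thus 9.41 log2 (SE 0.18) above that of U2OS (adjusted p = 4.76e-21). It is a lower bound, at least 681-fold, since the U2OS signal cannot be told apart from background. No difference was called between it and the COL1A2 level in G361 (4.05 ± 0.21, SD, n = 3), TK6 (4.04 ± 0.12) or the arrays labelled HepG2 (3.95 ± 0.10). Both other COL1A2 probe sets had the same pattern, with U2OS at 2.58 and 2.93 log2 and BJ at 12.93 and 10.64. For COL1A1 the other probe sets gave U2OS less relative to BJ: margins of BJ over U2OS were 1.24, 2.14 and 2.26 log2 in 3 of them, and the fourth varied by 0.37 log2 over the lines. COL1A1 in G361 was lowest, at 2.71 ± 0.31.

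Collagen III (COL3A1), which forms fibrils with collagen I in skin and vessels, was high in the same 2 lines. Its arrays read 12.74, 12.77 and 12.79 log2 in BJ and 10.44, 9.69 and 9.71 in U2OS, and means in the other lines were 2.70 to 2.98. BJ exceeded U2OS by 2.82 log2 (SE 0.19, limma adjusted p = 1.39e-11). The minor fibrillar chain COL11A1, which helps set fibril diameter, was likewise at 10.31 ± 0.08 in BJ, at 7.58 ± 0.22 in U2OS and at 2.60 to 2.79 elsewhere.

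The collagen V chains, which nucleate collagen I fibrils, each had an order of lines of its own. COL5A1 fell in the order BJ (10.52 ± 0.06), U2OS (8.03 ± 0.14), the arrays labelled HepG2 (6.10 ± 0.49), G361 (4.23 ± 0.43) and TK6 (4.04 ± 0.18), where the last 2 did not differ beyond their spread. COL5A2 was at 11.82 ± 0.18 in BJ and 8.74 ± 0.34 in U2OS, and TK6 (7.45 ± 0.29) and G361 (7.20 ± 0.59) did not differ by the test. The arrays labelled HepG2 were lowest for COL5A2 at 3.45 ± 0.32, under the level limit. COL5A3 had TK6 at the top with 7.72, 7.53 and 7.77 log2, followed by G361 with 7.31, 6.86 and 6.28. The margin of TK6 over G361 was 0.85 log2 (SE 0.26, limma adjusted p = 0.00865), the second COL5A3 probe set gave 0.83, and the call was lost without replicate 3 of each group. COL5A3 was the only collagen gene called highest in the lymphoblastoid line. COL27A1 ran from 7.27 ± 0.68 in BJ to 5.09 ± 0.20 in TK6, and of its neighbouring lines in that order only G361 and TK6 differed by the test.

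The basement membrane chains COL4A1 and COL4A2, which build the common collagen IV molecule, were high in every line except TK6. COL4A1 was at 2.86, 2.86 and 3.13 log2 in TK6 and COL4A2 at 3.37, 3.79 and 3.62. The next line up for both was U2OS, at 8.27, 9.30 and 9.12 for COL4A1 and 9.59, 10.27 and 10.48 for COL4A2. COL4A1 in TK6 was under the level limit, so U2OS lay at least 5.38 log2 above it, counted from the limit of 3.51 (limma adjusted p = 9.67e-17 on the measured means). COL4A2 in TK6 was just above the limit, with U2OS 6.52 log2 higher (SE 0.19, adjusted p = 2.12e-18). Both chains had the same order of lines: BJ (11.52 ± 0.35 and 12.18 ± 0.05), the arrays labelled HepG2 (10.81 ± 0.25 and 11.52 ± 0.33), G361 (9.40 ± 0.20 and 10.56 ± 0.25), U2OS and TK6. G361 and U2OS did not differ by the test for either (adjusted p = 0.0621 and 0.06). COL4A5, a chain of specialised basement membranes, was at 5.57 ± 0.41 in BJ, 1.27 log2 above G361 (SE 0.26, adjusted p = 2.55e-04), and fell to 2.88 ± 0.34 in TK6. COL4A3 and COL4A6 were under the level limit in all 5 lines on every probe set. So was COL4A4 on its chosen probe set, while another of its probe sets read 3.67 in BJ, above the limit of 3.47 there.

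The 6 type IV genes lie in 3 head-to-head pairs whose start regions overlap. In RefSeq's promoter windows (GRCh38.p14, 250 bases before to 50 after each start) the start sites of COL4A1 and COL4A2 are 127 bases apart and their windows share 226 bases, while those of COL4A3 and COL4A4 are 419 apart and those of COL4A5 and COL4A6, at the nearer COL4A6 entry, 380 apart. The windows of the first pair are shown because both genes had the same order of lines, and that of COL4A5 as the other type IV gene above the level limit. Each reads 5′ to 3′ on its gene's strand: COL4A1 at chr13:110307108-110307407 (minus), COL4A2 at chr13:110307034-110307333 (plus) and COL4A5 at chrX:108439588-108439887 (plus). Capitals mark CCAAT and GGGCGG on either strand.
COL4A1: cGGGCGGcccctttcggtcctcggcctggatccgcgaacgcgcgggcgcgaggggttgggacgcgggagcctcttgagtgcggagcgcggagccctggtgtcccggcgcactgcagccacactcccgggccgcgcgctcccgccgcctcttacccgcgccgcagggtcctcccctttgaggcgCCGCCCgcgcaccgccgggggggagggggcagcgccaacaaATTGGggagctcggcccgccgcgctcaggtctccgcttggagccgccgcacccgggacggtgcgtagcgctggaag
COL4A2: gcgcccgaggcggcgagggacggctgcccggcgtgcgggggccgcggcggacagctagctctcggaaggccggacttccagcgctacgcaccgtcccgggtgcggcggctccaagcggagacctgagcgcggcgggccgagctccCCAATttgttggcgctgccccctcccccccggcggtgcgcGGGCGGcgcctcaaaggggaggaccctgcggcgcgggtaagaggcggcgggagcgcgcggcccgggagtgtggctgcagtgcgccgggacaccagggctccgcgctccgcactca
COL4A5: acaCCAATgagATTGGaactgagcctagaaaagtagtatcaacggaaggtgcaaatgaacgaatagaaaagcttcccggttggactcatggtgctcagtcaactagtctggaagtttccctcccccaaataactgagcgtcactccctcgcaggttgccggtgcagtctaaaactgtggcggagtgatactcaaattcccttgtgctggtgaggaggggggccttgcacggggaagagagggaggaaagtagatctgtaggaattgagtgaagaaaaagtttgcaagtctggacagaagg
The COL4A1 and COL4A2 windows hold the same single CCAAT, at chr13:110307179-110307183, and the same GGGCGG, at chr13:110307219-110307224. COL4A1 has a second GGGCGG outside the shared stretch. COL4A5 has 2 CCAAT and 0 GGGCGG. GC content was 76.7% and 77.7% in COL4A1 and COL4A2 and 49.3% in COL4A5. A gene was counted as holding a motif if any of its windows did. By this rule 11 of the 31 collagen genes with an entry held CCAAT (35.5%) and 21 held GGGCGG (67.7%), against 39.7% and 48.3% of 27305 genes. Such matches describe letters and do not show a bound site.

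Among the collagen VI chains, whose usual molecule joins COL6A1, COL6A2 and COL6A3, COL6A3 separated the lines most. It read 12.28, 11.89 and 11.91 log2 in BJ, 10.94, 11.35 and 11.30 on the arrays labelled HepG2 and 7.86, 9.76 and 9.66 in U2OS. In G361 (3.13 ± 0.39) and TK6 (2.79 ± 0.22) it was under the level limit. COL6A1 fell from BJ (11.33 ± 0.33) over U2OS (9.85 ± 0.45), the arrays labelled HepG2 (7.78 ± 0.39) and G361 (7.11 ± 0.31) to TK6 (4.05 ± 0.23), with each step called. G361 thus lay 3.06 log2 (SE 0.23, limma adjusted p = 6.52e-11) above TK6 for COL6A1, but not for COL6A2 (3.92 ± 0.41 and 3.53 ± 0.22, adjusted p = 0.178) or COL6A3 (adjusted p = 0.438). COL6A2 was at 10.24 ± 0.31 in BJ, 7.80 ± 0.27 in U2OS and 5.38 ± 0.26 on the arrays labelled HepG2. BJ was highest for all 3 chains; for COL6A3 it exceeded the arrays labelled HepG2 by 0.83 log2 (SE 0.32, adjusted p = 0.0376).

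**Figure D2:**
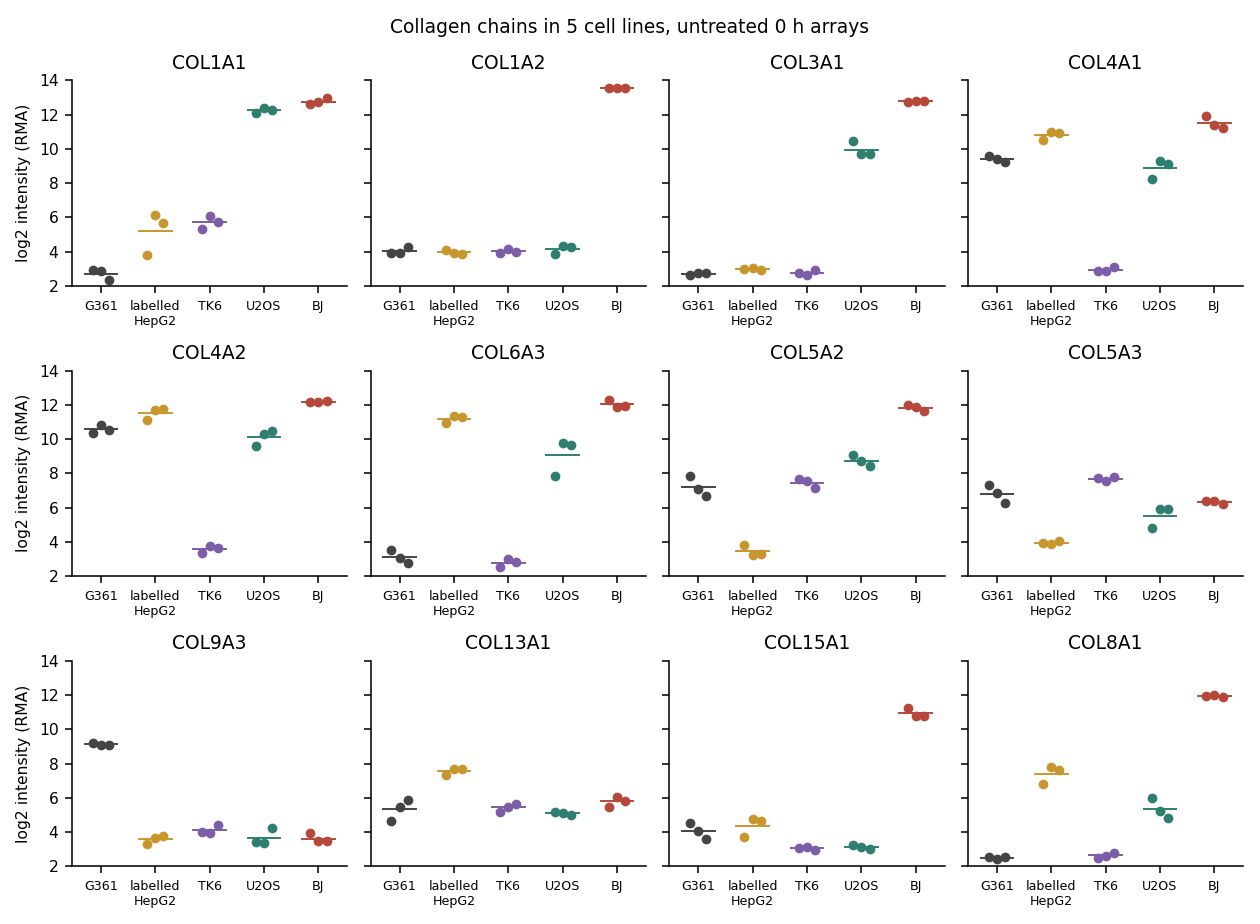
Log2 intensity of 12 collagen chains on the untreated 0 h arrays of each line (points, 3 per line; bar, mean). COL1A1 is above 12 log2 in U2OS and BJ while COL1A2 is above 13 log2 in BJ and near 4 log2 in the other 4 lines.

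The collagens with the widest margins of BJ over the next line came from several classes. After COL1A2 came the multiplexin COL15A1, which bridges fibrils next to basement membranes. It read 11.24, 10.81 and 10.78 log2 in BJ, and the next line, the arrays labelled HepG2, was 6.56 log2 lower (SE 0.25, limma adjusted p = 4.59e-16) at a level near the limit. The short-chain COL8A1, found in vessel walls and the cornea, was at 11.92, 12.01 and 11.89 log2 in BJ, 4.52 (SE 0.26) above the arrays labelled HepG2 (7.42 ± 0.55) and further above U2OS (5.34 ± 0.59), with G361 and TK6 at 2.50 and 2.65. COL5A2 and COL3A1 followed with margins of 3.08 and 2.82 over U2OS. The FACIT COL12A1, which sits on the surface of collagen I fibrils, lay between them at 12.39 ± 0.17 in BJ, 2.97 above U2OS (SE 0.23).

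The remaining genes highest in BJ are named to account for the family, after their values were seen. COL18A1, the parent of endostatin, was at 9.72 ± 0.40 in BJ and next at 7.30 ± 0.12 in G361, 2.61 log2 above U2OS (SE 0.21, limma adjusted p = 2.27e-10). COL16A1 and COL7A1, the anchoring fibril chain of skin, exceeded U2OS by 1.55 and 2.23 log2. COL8A2 and COL10A1, a hypertrophic cartilage collagen, exceeded TK6 by 2.07 and 0.55.

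A few collagens were highest outside the fibroblasts. COL9A3, a cartilage FACIT chain, was at 9.19, 9.10 and 9.10 log2 in G361 and at 3.58 to 4.12 in the other lines. The measured margin over TK6, whose level was near the limit, was 5.01 log2 (SE 0.23, limma adjusted p = 5.57e-15). Its partner chains in collagen IX did not share this: COL9A2 was highest in TK6 (5.60 ± 0.34) and U2OS (5.56 ± 0.29) with G361 at 4.59 ± 0.20, and COL9A1 did not differ between lines by the F test. The other COL9A2 probe set varied by only 0.31 log2 over the lines, with U2OS lowest at 4.39. COL13A1, a transmembrane collagen of cell adhesions, read 7.34, 7.67 and 7.69 log2 on the arrays labelled HepG2, 1.77 above BJ (SE 0.24, adjusted p = 1.54e-06). Another COL13A1 probe set put the arrays labelled HepG2 at 10.26 and BJ at 8.20 log2, with the other lines at 2.84 to 4.40. COL22A1, a collagen of tissue junctions, read 3.88, 4.73 and 4.70 in U2OS, 0.85 above TK6 (SE 0.23, adjusted p = 0.0027). That call was lost without replicate 2, and the other COL22A1 probe sets varied by under 0.4 log2.

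Counted by pairs of lines with no level filter, the fit called 23 of the 43 collagen genes between BJ and G361 (53.5%), 24 between BJ and the arrays labelled HepG2 (55.8%), 23 between BJ and TK6 (53.5%) and 24 between BJ and U2OS (55.8%). All genes gave 40.3%, 40.2%, 46.2% and 43.7% for the same pairs. Of the called collagen genes 21, 22, 21 and 22 were higher in BJ. The shares of all genes count both directions, and how many of those calls were higher in BJ is not given here. For the pairs without BJ the shares called were, for collagen genes and all genes in turn, 46.5% against 43.2% for U2OS and TK6, 44.2% against 38% for U2OS and G361, 44.2% against 36.4% for U2OS and the arrays labelled HepG2, 41.9% against 37% for the arrays labelled HepG2 and TK6, and 37.2% against 33.8% for these arrays and G361. G361 and TK6 differed in 27.9% of the collagen genes and 38.7% of all genes.

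The level filter raises these shares, since a gene passes it through the line where it is high. Among the 32 collagen genes past it, 71.9% were called between BJ and G361, 75% between BJ and the arrays labelled HepG2, 71.9% between BJ and TK6 and 71.9% between BJ and U2OS, against 49.2%, 48.9%, 55.8% and 52.9% of all genes past it. Between U2OS and TK6 62.5% of these collagen genes were called, against 52.3% of all genes past it. For U2OS and G361 it was 59.4% against 46.5%, and for U2OS and the arrays labelled HepG2 59.4% against 44.3%. The arrays labelled HepG2 gave 53.1% against 45.2% with TK6 and 50% against 41.4% with G361. Of the called collagen genes, U2OS exceeded TK6 for 18 of 20, G361 for 15 of 19 and the arrays labelled HepG2 for 13 of 19. The arrays labelled HepG2 exceeded TK6 for 14 of 17 and G361 for 12 of 16. Here too the direction of the calls over all genes is not given. G361 and TK6 differed in 12 of 32, with G361 higher in 9, against 47.3% of all genes.

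Genes that process collagen chains were above the level limit in most lines, as were 71.4% to 73.9% of all genes. Of 19 measured genes for chain hydroxylation and folding, 18 in TK6 and 19 in each other line were above the limit. Of the 19, 12 were highest in BJ and 5 in G361, the highest line for 19.0% of all genes. SERPINH1, the collagen chaperone HSP47, was at 10.86 ± 0.21 log2 in BJ (SD, n = 3), 9.81 ± 0.08 in U2OS, 9.10 ± 0.19 on the arrays labelled HepG2, 7.45 ± 0.18 in TK6 and 4.72 ± 0.07 in G361, and was named after its values were seen. The lowest line for this chaperone was thus G361, the highest line for 5 others of the 19 and for COL9A3. Fibril partners such as decorin and fibronectin were highest in BJ for 13 of 15, and 11 of 18 secretion, trimming and crosslinking genes were highest there, where 18.6% of all genes were.

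After 5 Gy, limma called 0 collagen genes in each of the 10 comparisons of irradiated with time-matched untreated arrays. In TK6, 0 of 23 tested collagen genes were called at 3 h and 0 of 23 at 6 h, where 3.99% and 6.23% of all genes tested were called. U2OS had 0 of 30 at both times (0.0887% and 0.641% of all genes) and BJ 0 of 29 (0.18% and 0.235%). The arrays labelled HepG2 had 0 of 26 (0% and 0.00696%) and G361 0 of 23 (0% and 0%). A count of 0 among so few genes is near the background in all 10 comparisons. At an unadjusted p under 0.05, 3 of the 262 tests of collagen genes passed, against 8804 of 144408 tests of all genes, and the lowest adjusted p of a collagen gene was 0.175. The groups of 3 did not overlap in 13 of the 262 tests, and in 16573 of 144408 for all genes.

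**Figure D3:**
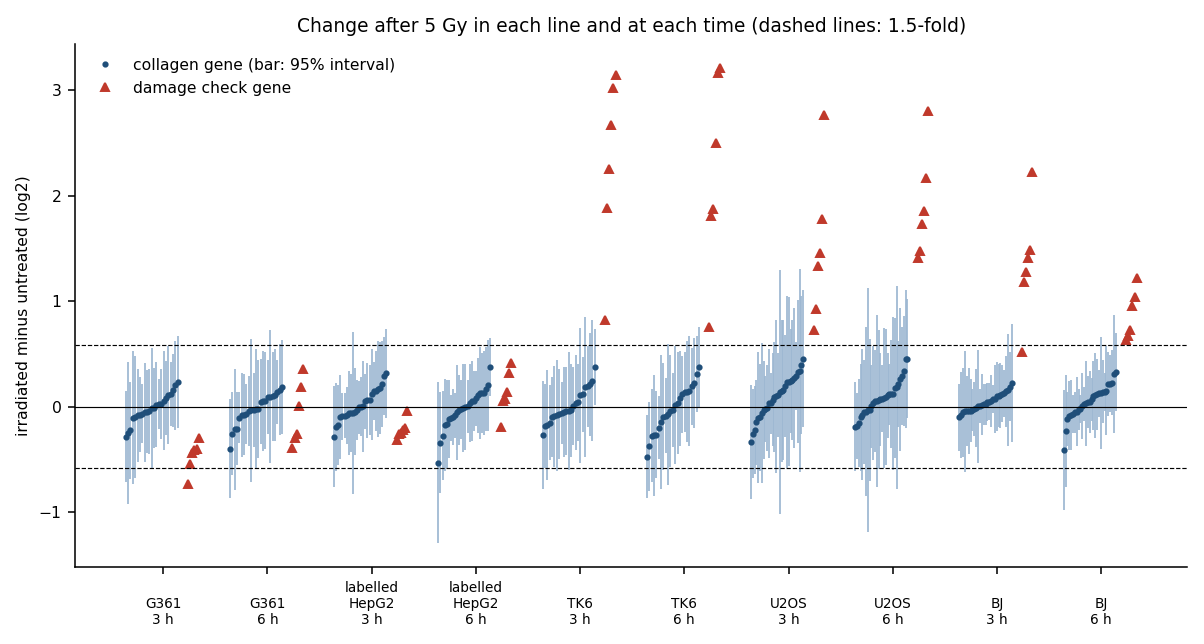
Change after 5 Gy (irradiated minus time-matched untreated, log2) for each collagen gene above the level limit (blue points with 95% intervals, sorted) and for the 6 damage check genes (red triangles), by line and time; dashed lines mark 1.5-fold. No collagen point lies beyond 1.5-fold, while the damage check genes lie between 0.52 and 3.21 log2 in TK6, U2OS and BJ.

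No estimated change of a collagen gene reached 1.5-fold: the 262 changes ran from -0.53 to 0.46 log2, and the 164 of TK6, U2OS and BJ alone from -0.47 to 0.46. For all genes tested they ran from -3.18 to 4.52 log2. The median collagen change of a comparison lay between -0.04 and 0.10 log2, and that of all genes between -0.01 and 0.10. The highest of these, 0.10 for both, belonged to U2OS at 3 h. The 95% interval lay within 2-fold in both directions for 250 of the 262 (95.4%), against 97.2% of all tests, and within 1.5-fold for 160 (61.1%), against 71.8%. With the replicate number as a block it lay within 2-fold for 261 of the 262 and within 1.5-fold for 199. The shares of all genes with the block are not given here, and the intervals below are without it. In TK6, U2OS and BJ alone, the lines whose damage score followed the labels, the interval lay within 2-fold for 153 of 164 (93.3%, all genes 95.9%) and within 1.5-fold for 92 (56.1%, all genes 65.5%). The share within 1.5-fold was highest in BJ, with 26 of 29 collagen genes at 3 h and 24 of 29 at 6 h (85.2% and 80.4% of all genes). It was lowest in U2OS, with 8 and 10 of 30 (43.8% and 49.0% of all genes). In TK6 it was 14 and 10 of 23, in G361 16 and 15 of 23 and in the arrays labelled HepG2 18 and 19 of 26.

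In BJ the major chains were bounded closely. COL1A2 read 13.74, 13.65 and 13.66 log2 on untreated and 13.69, 13.57 and 13.72 on irradiated arrays at 6 h, a change of -0.03 (95% interval -0.16 to 0.11). Its 3 h change was 0.07 (-0.06 to 0.20). COL1A1 changed by 0.02 (-0.17 to 0.21) at 3 h and -0.05 (-0.25 to 0.14) at 6 h, COL3A1 by 0.01 (-0.16 to 0.17) and 0.02 (-0.14 to 0.18), and COL6A3 by 0.02 (-0.18 to 0.22) and -0.03 (-0.23 to 0.17). The basement membrane chain COL4A1 gave 0.12 (-0.15 to 0.39) and 0.22 (-0.05 to 0.49), and COL4A2 0.05 (-0.13 to 0.23) and 0.14 (-0.04 to 0.32). Collagen V and VI chains not named here had estimates of -0.12 to 0.14 in BJ. The largest changes in BJ were those of COL4A5 (0.23) and COL20A1 (0.19) at 3 h, and COL10A1 (-0.41) and COL11A2 (0.33) at 6 h.

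COL5A3 in TK6 came closest to a call. At 6 h it read 7.88, 7.64 and 7.70 log2 on untreated arrays and 7.30, 7.26 and 7.23 on irradiated ones, so the groups did not overlap. The change was -0.47 log2 (SE 0.19, limma adjusted p = 0.175). With the replicate number as a block, which the arrays supported at this time (same-numbered arrays correlated at 0.259 to 0.473 after group means were removed), COL5A3 was called lower (adjusted p = 0.0273), and so it was in a fit of the 6 compared arrays alone (adjusted p = 0.0313). These fits called 1868 and 901 of 14227 genes, and 1 of 23 collagen genes is not above those shares. At 3 h the change of COL5A3 was -0.18 (95% interval -0.58 to 0.21). The other collagen V chains of TK6 changed by 0.14 (COL5A1) and -0.03 (COL5A2) at 6 h. In TK6 the other largest changes were COL27A1 (0.37) and COL1A1 (-0.27) at 3 h and COL22A1 (-0.38) at 6 h. Without replicate 3 of each TK6 group the adjusted p of COL5A3 was 0.627.

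In U2OS the intervals, from the fit without the replicate block, were wide. The largest changes were COL27A1 (0.46, 95% interval -0.19 to 1.10) and COL7A1 (0.39, -0.26 to 1.05) at 3 h, and COL4A5 (0.46, -0.11 to 1.02) and COL7A1 (0.45, -0.21 to 1.10) at 6 h. COL1A1 in U2OS changed by -0.02 (-0.33 to 0.29) and -0.18 (-0.49 to 0.13), and COL3A1 by 0.10 (-0.63 to 0.82) and 0.12 (-0.60 to 0.85). Without replicate 1, 1 collagen gene was called in U2OS at 6 h: COL6A2, at 0.54 log2 (adjusted p = 0.0499), against 0.34 (SE 0.25, adjusted p = 0.9997) with all arrays. That was 1 of 30 collagen genes, where 256 of 14654 genes were called without replicate 1. In the arrays labelled HepG2 the largest changes were COL18A1 (0.32) and COL27A1 (0.29) at 3 h and COL1A1 (-0.53, SE 0.37) and COL7A1 (0.37, SE 0.13) at 6 h. In G361 they were COL15A1 (-0.29) and COL16A1 (-0.25) at 3 h and COL5A1 (-0.40) and COL18A1 (-0.26) at 6 h.

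In U2OS some collagen genes differed more between replicate numbers than any did after irradiation. COL6A3 on replicate 1 read 7.86, 7.75 and 8.43 log2 untreated at 0 h, 3 h and 6 h and 8.18 and 8.46 after 5 Gy at 3 h and 6 h. Replicates 2 and 3 lay at 9.54 to 9.76 in all 5 groups, so replicate 1 minus the mean of the others was -1.89 to -1.11 log2. Replicate 1 was also the lowest in all 5 groups for COL5A3 (mean difference -1.18), COL4A1 (-1.01), COL4A2 (-0.82) and COL6A1 (-0.79), and the highest in all 5 for COL3A1 (0.92). In all, 12 of 30 collagen genes differed by over 0.5 log2 between replicate 1 of U2OS and the other replicates, against 11.1% of all genes in U2OS. In the other lines 0 to 3 collagen genes did so for any replicate number. For replicate 3 of TK6 it was 3 of 23, against 0.478% of all genes in TK6. The labels give no batch for the replicate numbers, and what sets replicate 1 of U2OS or replicate 3 of TK6 apart was not tested. In G361, replicate 1 had a GAPDH 5′ minus 3′ difference of -0.94 to -0.68 log2, against -0.18 or higher on all other arrays, and 3 of 23 collagen genes differed by over 0.5 log2 there, against 6.23% of all genes in G361, COL13A1 lowest (-0.66) and COL5A3 highest (0.62). The part of RNA quality in these differences was not tested.

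**Figure D4:**
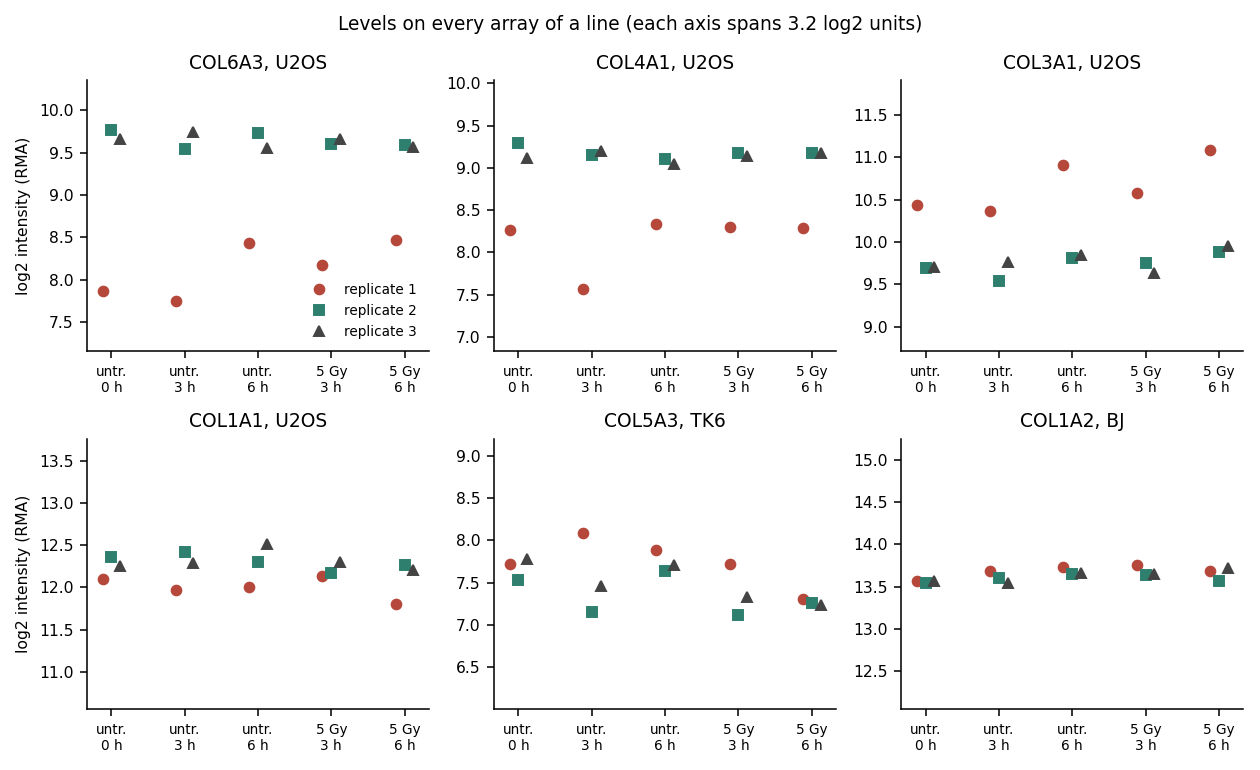
Log2 intensity on all 15 arrays of a line for 6 collagen genes, by group, with a marker for each replicate number; every axis spans the same 3.2 log2 units. Replicate 1 of U2OS is low for COL6A3 and COL4A1 and high for COL3A1 in all 5 groups, COL5A3 in TK6 has its lowest group mean, 7.27 log2, 6 h after 5 Gy, and COL1A2 in BJ stays between 13.5 and 13.8 log2.

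Collagen genes gave no call over the arrays labelled untreated. Over these at 0 h, 3 h and 6 h, limma's F test called 0 collagen genes in all 5 lines, where 0% (G361), 0.717% (arrays labelled HepG2), 4.44% (TK6), 0% (U2OS) and 0.0207% (BJ) of all genes were called. Of 131 such tests of collagen genes 4 had an unadjusted p under 0.05, and the lowest adjusted p was 0.250. The courses of G361 and the arrays labelled HepG2 cannot be read as time without irradiation, given their damage scores. Whether the irradiation change of a collagen gene differed between lines was tested in 1 fit of all 75 arrays. It called 0 of 31 collagen genes at 3 h and 0 at 6 h, against 1.34% and 1.83% of all genes, and 0 had an unadjusted p under 0.05 at either time. That fit includes the 2 lines whose damage score did not follow the labels. A fit of TK6, U2OS and BJ only, chosen after seeing the data, called 0 of 31 at both times (0.604% and 1.26% of all genes), again with 0 at an unadjusted p under 0.05.

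Most of the variance of most collagen genes lay between lines, where line and culture or hybridisation batch cannot be told apart. Over all 43 genes the median share of the variance over 75 arrays that lay between lines was 90.7%, against 72.9% for all 19775 genes, and it was over 90% for 23 of the 43 (53.5%), against 26.4% of all genes. For the 31 genes above the level limit in at least 1 line over all its arrays, the median was 98.5%, against 81.9% for all 16027 genes past the same limit. That limit favours genes that differ between lines: the 12 collagen genes left out by it had 2.21% to 31.4% between lines. COL1A2 had 99.8% between lines, 0.0378% between groups of a line and 0.145% between arrays of a group. Among the 31 the share between lines was lowest for COL9A1 (10.2%), COL23A1 (12.6%) and COL26A1 (13.4%), which did not differ between lines by the F test either. A high share is reached where a gene is on in few lines, and it says nothing of amounts.

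**Figure D5:**
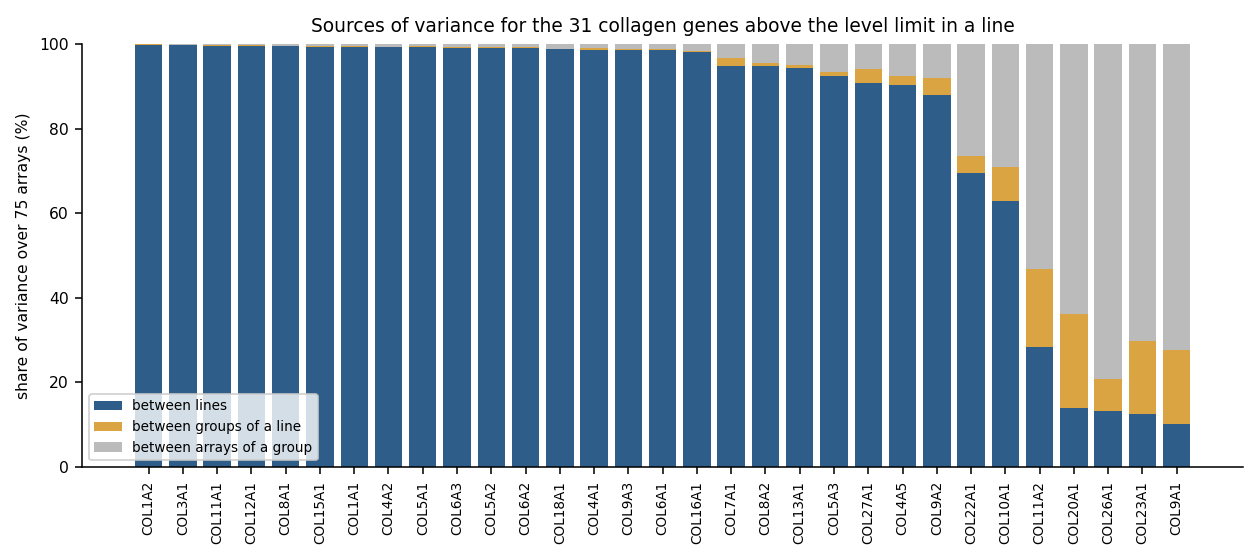
Share of the variance over 75 arrays (%) that lies between lines, between the groups of a line and between the arrays of a group, for the 31 collagen genes above the level limit in a line. From COL1A2 (99.8% between lines) to COL4A5 (90.4%) the lines account for over 90%, and the groups of a line for 3.28% at most among these 23 genes.

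Among the lists of genes that work with collagens, calls after irradiation came from TK6 at 6 h only, where 6.23% of all genes were called. Over the 10 comparisons 1623 of 144408 tests of all genes were called (1.12%). Of 190 tests of chain modification and folding genes over the 10 comparisons 0 were called, with 4 at an unadjusted p under 0.05. For secretion, trimming and crosslinking 1 of 146 was called: KLHL12, an adaptor for the large vesicles that export procollagen, at 0.54 log2 (SE 0.09, limma adjusted p = 0.00106). Of 90 receptor tests 1 was called: ADGRG1, a collagen III receptor, at 1.55 log2 (SE 0.26, adjusted p = 9.12e-04), from a mean of 3.73 to 5.28. SKIL, an inhibitor of TGF-beta signalling, was the only call among 116 tests of TGF-beta and hypoxia responsive genes, at -0.88 log2 (SE 0.21, adjusted p = 0.0153). Degradation genes and fibril partners gave 0 calls in 102 and 114 tests, with 6 and 3 at an unadjusted p under 0.05.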

How the data were processed

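The deposited log2 values of 75 arrays (54675 probe sets) were made by the authors with RMA, per the submitters' processing notes; its version and grouping of arrays are not given in the sources used here. Probe sets with a single symbol (41097) gave 19775 genes. Values ran from 1.64 to 13.99 log2, and the number of arrays limits the precision.

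Models were fitted in R 4.3.3 with limma 3.58.1 (eBayes with trend) on the deposited log2 values: 5 group means over the 15 arrays of a line (10 residual degrees of freedom), 5 lines over the 15 untreated 0 h arrays, and all 75 arrays for differences between lines in the irradiation change. Benjamini-Hochberg adjustment ran over all genes past the level limit, with calls at an adjusted p below 0.05. The scripts were tested on simulated data.

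The collagen genes and the other lists were chosen with earlier results of these data known. Genes were named by a rule: members called after irradiation, up to 6 per line highest there, the 2 largest changes per comparison, the chains of collagens I, III, IV, V and VI, and up to 4 called genes per other list. Others are said to be named after their values were seen. Same-numbered arrays deviated together (every correlation over 0.1) except in BJ at 6 h (lowest -0.0306) and the arrays labelled HepG2 at 3 h (0.0961). Alternatives covered the level limit, normalization, probe set, arrays in the fit, replicate block, control and replicates left out. RefSeq promoter windows matched 31 of the 43 genes; protein sequences were not used here.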

Additional observations from a re-analysis of the deposited data

How the results depend on the processing

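Each comparison holds 3 arrays a side, so changes below about 1.5-fold were bounded for only part of the genes, and the level limit cannot tell low expression from background. The count of 0 called collagen genes was the same under every alternative tried in 8 of 10 irradiation comparisons and in the untreated courses. It was also the same for differences between lines in the irradiation change. The exceptions were TK6 at 6 h, with 1 under the replicate block and 1 with the 6 compared arrays alone, and U2OS at 6 h, with 0 to 1 when arrays were left out. The TK6 fits called 1868 and 901 of 14227 genes, and the U2OS fit without replicate 1 called 256 of 14654. The replicate block changed no other call.

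Genes bounded within 1.5-fold over the 10 comparisons were 305 of 430 with no level filter, 99 of 168 with the 60th percentile and 87 to 157 of 262 with a replicate left out. Within 2-fold they were 417, 157 and 225 to 253. With the replicate block 199 of 262 were bounded within 1.5-fold and 261 within 2-fold. At the 60th percentile 13 collagen genes were above the limit in G361, 15 in the arrays labelled HepG2 and 9 in TK6. Genes called highest in U2OS were 2 with all 15 arrays of each line, 0 with the mean of all probe sets and 0 to 1 with a replicate left out, and in TK6 0 to 1; in BJ they were 17 to 20.

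Uncalled changes that turned sign against the 0 h control were COL15A1 in G361 at 3 h (0.0334), COL1A1 in HepG2 at 6 h (0.26), COL27A1 in TK6 (-0.0483) and U2OS (-0.11) at 3 h, COL7A1 in U2OS at 3 h (-0.22) and COL20A1 in BJ at 3 h (-0.11). COL27A1 in TK6 at 3 h was -0.0684 with the mean of all probe sets. With arrays left out COL16A1 in G361 at 3 h ran from -0.86 to 0.13, COL7A1 in U2OS at 3 h from -0.00808 to 0.65 and COL4A5 in BJ at 3 h from -0.18 to 0.58. The causes were not tested. Of 37 other probe sets of genes highest in 1 line, 33 had the same line on top; the margin turned for COL4A5 (-0.25), COL6A1 (-0.0366 and -0.0550) and COL22A1 (-0.0492).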

Other observations

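For some collagens an unchosen probe set read higher relative to the other lines than the chosen one; these were noticed after their values were seen. The COL8A2 probe set not used above was at 7.17 log2 in BJ and at 2.90 to 3.25 in the other lines, where the chosen one was at 5.62 and at 3.33 to 3.55. A COL4A4 probe set not used above was at 3.67 in BJ and 3.33 in U2OS and at 2.49 to 2.54 elsewhere, so that its BJ level alone passed the limit. The COL3A1 chain had a probe set that stayed at 2.37 to 2.67 in all lines although 4 others separated BJ and U2OS from the rest.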
